A study of Homo sapiens with 16 samples.

Results

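The 89 genes described here are the nuclear genes for subunits of the 5 complexes of oxidative phosphorylation (OXPHOS), followed in a human breast cancer line with and without TXNIP and with and without a knockdown of Myc. They were chosen by symbol alone from the 60719 gene identifiers of the count tables, as protein-coding genes named NDUFA, NDUFB, NDUFC, NDUFS or NDUFV (not the NDUFAF assembly factors), SDHA to SDHD, UQCR, CYC1, the COX4 to COX8 subunits and ATP5. The rule used no measured value. Complex I had 37 of these genes, complex II 4, complex III 10, complex IV 19 and complex V 19. NDUFA4 and NDUFA4L2 were placed with complex IV, where the NDUFA4 protein resides. A further 180 symbols of genes that are not protein coding, many of them pseudogenes of these subunits, and 2 readthrough genes were left out.

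Complexes I to IV pass electrons from NADH and succinate to oxygen, and complexes I, III and IV pump protons out of the mitochondrial matrix as they do so. Complex V, the ATP synthase, lets the protons back in through a rotating ring and makes ATP in its F1 head. Most subunits are encoded in the nucleus and imported, whereas a small set of core subunits of all but complex II is encoded in mitochondrial DNA, so the respiratory chain depends on both genomes. Myc is known as an activator of genes for mitochondrial biogenesis, and TXNIP as an inhibitor of glucose uptake whose loss shifts cellular metabolism.

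All libraries came from MDA-MB-231, an established line of human triple-negative breast cancer cells, grown in DMEM with serum. Parental 231 cells were unedited, and in 231:TKO cells TXNIP had been deleted with CRISPR/Cas9. According to the study's methods knockout clones were grown from single cells, so a difference between the populations can belong to a clone, and the labels do not say which clone gave a library. Both populations were sequenced untreated (2 replicates each) and 48 h after a non-targeting siRNA (siNT) or an siRNA against Myc (siMyc), with 3 replicates for each population and siRNA. The study describes the untreated replicates and the 231:TKO siRNA replicates as biological. Nothing states this for the parental siRNA libraries, so p-values that rest on them measure only the spread between these samples, which may be technical. Counting used single reads for the untreated set and read pairs for the siRNA set. Where levels of both sets are given side by side, their difference is not read as an effect of the siRNA. The parental siRNA libraries were counted with annotation release 104 and the other libraries with release 102, and the names of their alignment files carry another number than those of the 231:TKO siRNA libraries. Between 231:TKO and parental 231 cells with siRNA, the genotype therefore cannot be told apart from the release and that number. Of the 89 genes, 86 had the same annotated length in both releases; NDUFB3, at 841 and 1852 bases, was among the exceptions.

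Total counts were between 18953668 and 59799444 per library. For the 80 genes with a mean of at least 10 CPM (counts brought to equal library totals with TMM factors), the exact 95% interval of a single library's value reached a median of 3.63% to either side. TXNIP was at 283 CPM in both untreated parental libraries and at 12.4 and 45.5 in the 231:TKO libraries. This log2 difference of -3.29 (standard error 0.65, edgeR adjusted p = 0.0587) was not called. Against counting error alone, the chi-square per degree of freedom between untreated replicates was 39.1 in 231:TKO and 2.02 in parental 231. TXNIP stayed between 6.54 and 10.2 CPM in all 6 siRNA libraries of 231:TKO against 302 to 467 in the parental ones. MYC was between 121 and 144 CPM with siNT and between 58.1 and 67.6 with siMyc. Of markers of the line, VIM was high (1814 to 3117 CPM), and ESR1 and PGR did not exceed 0.305 CPM. ERBB2 was at 76.2 to 106 CPM. Markers of blood, liver and muscle cells were close to absent, with MYOD1 and MYF5 at 0 counts and PTPRC at 1.48 CPM or less. PTPRC was at 0.581 to 1.48 CPM in the parental libraries and at 0.137 or less in the 231:TKO libraries. Epithelial markers were mixed. KRT5 and KRT14 did not exceed 0.492 CPM, whereas ELF3 was at 0.446 to 14.3. CDH1 differed between the populations, at 0.267 to 1.08 CPM in the 231:TKO libraries and at 4.13 to 9.42 in the parental ones. EPCAM was at 12.2 to 31.3 CPM, with 13.6 and 31.3 in the untreated 231:TKO replicates.

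A pair of parental libraries stood apart from the rest in these genes. In parental 231+siNT replicate 1 and parental 231+siMyc replicate 3 the 89 genes summed to 12508 and 11777 CPM, against 8801 to 9294 CPM in the other 10 siRNA libraries. Against each gene's median over the 6 parental siRNA libraries, their median member lay 0.45 and 0.41 log2 units higher, with positive medians in every complex, while the other 4 parental siRNA libraries lay between -0.09 and -0.01. In the same libraries all genes of up to 2 kb had a median of 0.26 and 0.24, and genes over 7 kb a median of -0.20 and -0.23. OXPHOS subunits are small proteins with short mRNAs. The 82 genes with a mean of at least 1 CPM had a median annotated length of 2305 bases, against 5126 for all 13448 genes at that level. The part of gene length in the results was not tested beyond the values with length offsets given in the closing section. For the 89 genes, every siRNA comparison that uses either library is given with and without it. The lists of other genes are given only with all libraries.

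**Figure D1:**
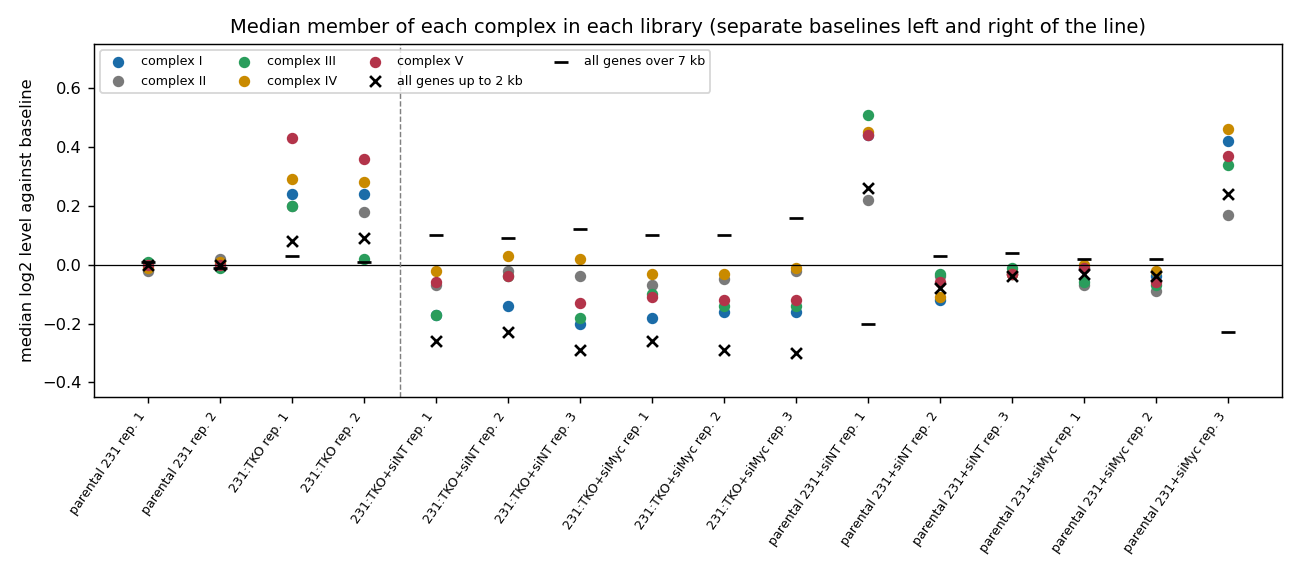
Median log2 level of the members of each complex in each library (y axis), against the mean of the untreated parental libraries (left of the dashed line) or each gene's median over the 6 parental siRNA libraries (right), with all genes up to 2 kb (crosses) and over 7 kb (dashes). Parental 231+siNT replicate 1 and parental 231+siMyc replicate 3 lie highest among the siRNA libraries for all 5 complexes, with member medians of 0.45 and 0.41.

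Promoter sequences are shown for members that hold either of 2 motifs and were called, in untreated 231:TKO cells for the first motif and after siMyc for the second. NRF1 is the transcription factor classically tied to genes of the respiratory chain, and its core was searched as GCGCATGC or GCATGCGC, the same letters on opposite strands, and matches on both strands can overlap, as in NDUFB4 and ATP5F1C. The E-box CACGTG, which reads alike on both strands, is the site classically bound by Myc with its partner Max. RefSeq promoter windows of 300 bases (GRCh38.p14) were found for 70 of the 89 members. The NRF1 core was in 13 of the 70 (18.6%), against 894 of 27305 promoters in all (3.27%) and 675 of 15843 promoters of protein-coding genes (4.26%). By complex it was in 5 of 32 promoters of complex I, 2 of 3 of complex II, 0 of 7 of complex III, 2 of 14 of complex IV and 4 of 14 of complex V. The E-box was in 7 of the 70 (10%), against 7.43% of all promoters and 8.88% of those of protein-coding genes. These matches describe the letters in the window, and no binding was measured here.

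The 6 members that hold the NRF1 core and were higher in untreated 231:TKO cells are shown with the motif in capitals, 5′ to 3′ on the gene's strand, upstream of the start. They lie at chr3:120596147-120596216 (NDUFB4, plus strand), chr5:1801331-1801398 (NDUFS6, plus), chr2:97645896-97645963 (COX5B, plus), chr10:7788125-7788176 (ATP5F1C, plus), chr4:674317-674384 (ATP5ME, minus) and chr21:25735137-25735204 (ATP5PF, minus). The core was in 6 of 25 promoters of the members higher in untreated 231:TKO (24%) and in 7 of 43 of the members tested and not called (16.3%). For the E-box the counts in the same sets went the other way, 1 of 25 (4%) and 6 of 43 (14%). Neither difference was tested.
NDUFB4: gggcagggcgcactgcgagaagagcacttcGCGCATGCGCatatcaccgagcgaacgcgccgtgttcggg
NDUFS6: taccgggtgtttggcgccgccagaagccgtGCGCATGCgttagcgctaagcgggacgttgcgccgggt
COX5B: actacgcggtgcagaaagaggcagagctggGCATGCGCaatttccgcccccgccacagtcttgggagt
ATP5F1C: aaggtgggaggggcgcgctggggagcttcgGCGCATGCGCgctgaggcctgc
ATP5ME: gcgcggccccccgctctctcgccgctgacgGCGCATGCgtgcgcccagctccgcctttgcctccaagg
ATP5PF: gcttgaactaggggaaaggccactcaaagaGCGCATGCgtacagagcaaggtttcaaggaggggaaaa

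The 2 members that hold an E-box and fell with siMyc in 231:TKO cells were ATP5MC1, at chr17:48892761-48892806 (plus strand), and ATP5PB, at chr1:111449214-111449276 (plus). The capitals mark CACGTG. Of the members that fell and have a promoter entry, 2 of 10 hold an E-box (20%), and of those tested and not called 5 of 56 (8.93%). The NRF1 core was in 1 of the 10 (10%) and in 12 of the 56 (21.4%). These differences were not tested.
ATP5MC1: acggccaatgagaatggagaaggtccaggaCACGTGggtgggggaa
ATP5PB: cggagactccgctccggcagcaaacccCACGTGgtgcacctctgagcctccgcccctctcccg

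Of the 89 genes, 82 had a mean of at least 1 CPM over the 16 libraries, and the silent ones were alternative isoforms. COX4I2, COX6A2 and COX7A1, the lung or muscle isoforms of complex IV subunits, had 0 counts in every library, which allows at most 0.0184 to 0.0785 CPM per group at 3 counts. Their ubiquitous counterparts were well expressed, with COX4I1 at 193 ± 7.72 CPM, COX6A1 at 217 ± 6.42 and COX7A2 at 168 ± 4.32 in 231:TKO+siNT (SD, n = 3). COX6B2, COX8C, NDUFA4L2 and ATP5MGL lay under 1 CPM. COX7B2, whose main site of expression is testis, was at 0 to 0.203 CPM in the untreated libraries and at 3.76 to 6.91 in the siRNA libraries.

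Levels per kilobase of annotated exon spread over more than 2 orders of magnitude within the chain. The annotated length covers all exons listed for a gene, such as 16591 bases for NDUFB9 and 12600 for UQCRB. It can exceed the length of the mRNA, so the order of genes and the medians per complex are only approximate. In untreated parental 231 cells ATP5F1B, the catalytic beta subunit of the ATP synthase, was highest at 253 CPM per kb, followed by COX8A (223), the smallest subunit of complex IV, and by NDUFS5 (101) and NDUFA1 (89.8), accessory subunits of complex I. In 231:TKO+siNT, counted from read pairs, COX8A was highest at 410 ± 32.3 CPM per kb (SD, n = 3), followed by NDUFA1 (320), ATP5F1B (309) and NDUFS5 (247). The same 4 genes led in both groups, in another order. At the other end of complex I NDUFA7 was at 0.775 CPM per kb in untreated parental 231 and at 1.19 in 231:TKO+siNT. It held 1112 counts over the 16 libraries, and whether its reads were lost in counting was not tested. In 231:TKO+siNT the median of the members was 17.8 CPM per kb for complex I, 39.2 for complex II, 50.3 for complex III, 74.4 for complex IV and 52.2 for complex V. Members with near-identical copies in the genome are uncertain, because reads shared with a copy can be split or dropped. UQCRHL, an intronless copy of UQCRH, the hinge protein of complex III, was at 0.509 to 0.767 CPM in the single-read libraries and at 21.7 to 38.5 in the paired ones. COX6A1 was at 33.9 to 40.4 CPM in the single-read libraries and at 211 to 377 in the paired ones.

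The first comparison asked whether the loss of TXNIP alone goes with a change in these genes, in untreated cells. Called members were found in complexes I, III, IV and V, and all of them were higher in 231:TKO cells. Of 83 members tested, 29 (34.9%) were called higher and 0 lower at an adjusted p of 0.05 by edgeR (30 and 0 by DESeq2), where 5.43% of all 19965 genes tested were called higher and 4.18% lower. At a mean of at least 1 CPM, 29 of 82 members were higher and 0 lower, beside 1065 and 729 of 13357 genes. The median log2 fold change was 0.28, against 0.00 for all genes, and 68 members lay above 0 and 15 below. The called members numbered 10 of 37 in complex I, 0 of 4 in complex II, 3 of 10 in complex III, 5 of 14 in complex IV and 11 of 18 in complex V. Summed CPM was 1949 ± 6.39 in parental 231 and 2583 ± 54.4 in 231:TKO for complex V (SD, n = 2 each), 1388 ± 5.36 and 1696 ± 0.327 for complex I, and 784 ± 0.962 and 965 ± 35.3 for complex IV. For complex III the sums of 650 ± 12 and 741 ± 72 differed by little more than the spread of the 231:TKO replicates.

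Complex V, with 11 of 18, had the largest share of called members, a difference between complexes that was not tested. Its small membrane subunits, which tie the motor to the inner membrane and link ATP synthases into dimers, were all called, 5 of 5 with a median of 0.56. ATP5ME, subunit e, at chr4:672436-674330, was at 9.26 and 10.4 CPM in parental 231 and at 33.7 and 34.3 in 231:TKO. The groups lay far apart, and the log2 difference of 1.78, or 3.44-fold (standard error 0.11, adjusted p = 0.00403), was the largest among the called members. ATP5MK, which helps to maintain synthase dimers, was at 45.5 and 48 against 81.9 and 69.5 CPM (0.69, standard error 0.10, adjusted p = 0.0205). ATP5MJ, ATP5MG and ATP5MF had log2 fold changes of 0.56, 0.43 and 0.42.

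In the F1 head, where ATP is made, ATP5F1A, the alpha subunit, was at 346 and 340 CPM in parental 231 and at 603 in both 231:TKO libraries (0.81, standard error 0.06, adjusted p = 0.0051). Its partner ATP5F1B, the beta subunit, which holds the catalytic sites, was at 567 and 568 against 583 and 556 CPM, with a log2 fold change of 0.00 (standard error 0.06). ATP5F1E and ATP5F1C, the epsilon and gamma subunits of the rotor, had differences of 0.65 and 0.33, both called. ATP5F1D, the delta subunit, was at -0.28 and was not called (adjusted p = 0.0825).

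The proton-carrying c ring is built from 1 mature peptide encoded by 3 genes. ATP5MC3 was at 82.1 and 86.7 CPM in parental 231 and at 162 and 156 in 231:TKO, higher by 0.91 log2 units with a standard error of 0.06 (adjusted p = 0.0051). ATP5MC1 and ATP5MC2 were both at 0.34, with adjusted p-values of 0.0597 and 0.0824. ATP5IF1, the inhibitor that stops the synthase from running backwards, was at 50.2 and 49.4 against 73.1 and 76.6 CPM (0.58, standard error 0.07, adjusted p = 0.0138). Of the 4 stalk subunits only ATP5PF was called, at 0.38.

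Most called members of complex I were accessory subunits, which surround the catalytic core and are needed to assemble it. Of 30 accessory genes 9 were called, with a median of 0.28, and of 7 nuclear core genes 1, with a median of 0.19. NDUFB3, an accessory subunit of the membrane arm, was at 14.9 and 15.1 CPM in parental 231 and at 36.4 and 34.9 in 231:TKO (1.24, standard error 0.09, adjusted p = 0.0051). NDUFC1, also in the membrane arm, was at 12.6 and 13.5 against 24 and 27.1 CPM (0.96, standard error 0.11, adjusted p = 0.0139). The other accessory genes called were NDUFB2, NDUFS6, NDUFS5, NDUFA1, NDUFB1, NDUFB4 and NDUFB7, between 0.48 and 0.82. Among the core genes NDUFV1, which binds NADH, was the called member at 0.38 (standard error 0.08, adjusted p = 0.0473). NDUFS1, the largest iron-sulfur subunit, was at 154 and 153 against 155 and 150 CPM, a difference of -0.02.

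Complexes II, III and IV had fewer called members. SDHA, SDHB, SDHC and SDHD, the flavoprotein, the iron-sulfur subunit and both membrane anchors of succinate dehydrogenase, had differences of 0.31, 0.05, 0.19 and 0.24, and none was called. In complex III, UQCRB, which helps to bind ubiquinone, was at 50.5 and 45.5 CPM against 118 and 84.5 (1.07, standard error 0.18, adjusted p = 0.0356). The 231:TKO replicates of UQCRB differed more than those of most members. UQCRQ and UQCR10, other small subunits, were at 0.60 and 0.55, whereas the Rieske protein gene UQCRFS1 was at 0.06. In complex IV, COX5B, a subunit on the matrix side, was at 32.5 and 32.9 CPM against 60.2 and 50 (0.75, standard error 0.11, adjusted p = 0.0206) and COX7B, a small membrane subunit, at 49.4 and 49.5 against 81.8 and 78.4 (0.69, standard error 0.07, adjusted p = 0.00993). COX7C, COX7A2 and COX8A were called between 0.30 and 0.44, and COX4I1, a regulatory subunit, was at 0.03.

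With 1 library left out, a single library stood against 2, and the number of calls changed over all genes. Without parental replicate 1 or 2, 0 members and 0% of all genes were called in either direction by edgeR, while 28 and 27 members had an unadjusted p under 0.05 and the member median was 0.25 and 0.31. DESeq2 was not run on these fits. Without 231:TKO replicate 1, 44 members were called higher and 4 lower (median 0.23), beside 18.5% and 19% of all genes, and without 231:TKO replicate 2 the counts were 55 and 5 (median 0.27), beside 18.1% and 17.9%. Some members lie in regions where other genes also moved, and with offsets for such windows 30 members were called higher and 0 lower, with a median of 0.22. For 10 members the other genes within a window of 20 Mb had a median above 0.25. Of these 6 were called (NDUFC1, UQCRB, ATP5F1A, ATP5MC3, ATP5ME and ATP5MG), with a median of 0.73. For the 71 members in windows between -0.25 and 0.25, 23 were called, with a median of 0.26. By length, the 12 members of up to 1 kb had a median of 0.62, against 0.15 for 372 other genes of that length, and the 41 members of 2 to 7 kb had 0.26 against -0.01.

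**Figure D2:**
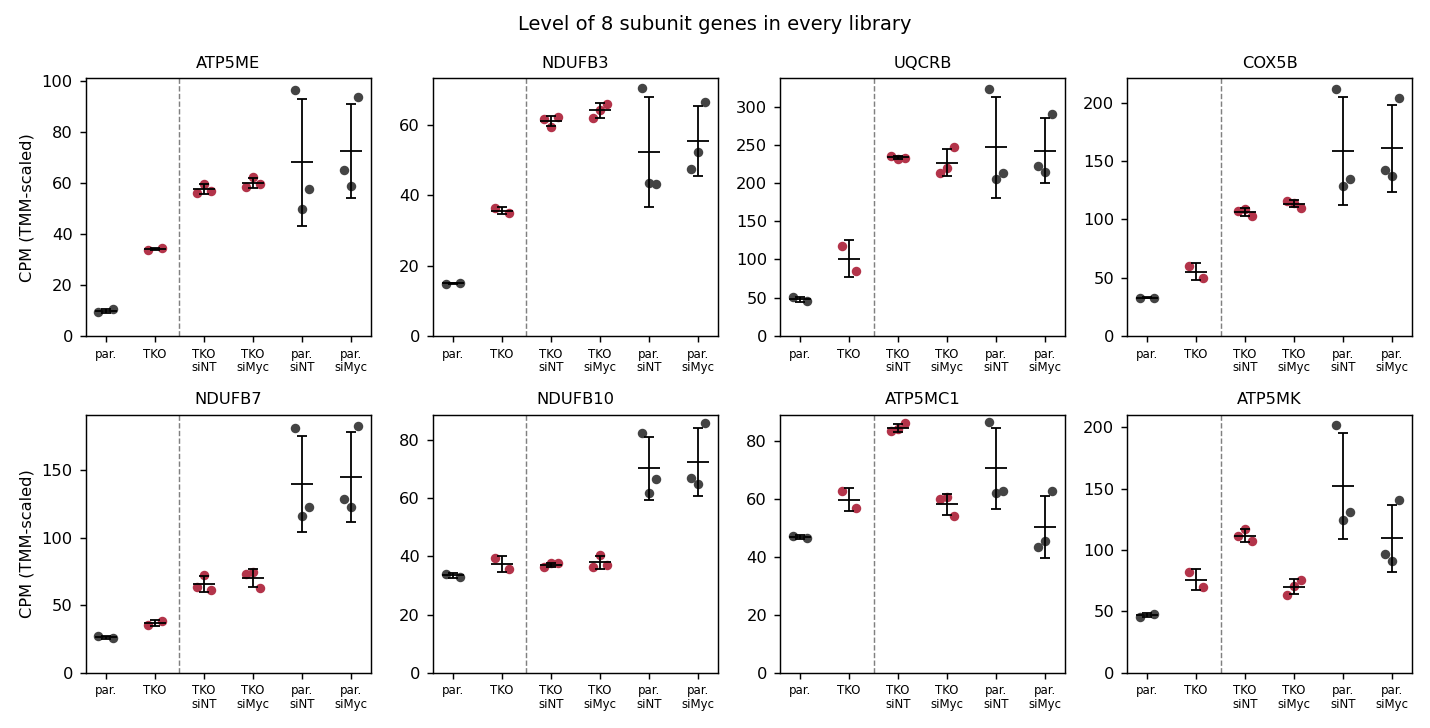
CPM (y axis, TMM-scaled) of 8 members in each library, grouped by population and siRNA, with mean and SD (bars); grey points are parental 231 and red points 231:TKO, and the dashed line separates single-read (left) from paired-read libraries (right). ATP5ME and NDUFB3 separate the untreated groups, NDUFB7 and NDUFB10 the siRNA groups of each population, and ATP5MC1 and ATP5MK fall with siMyc in 231:TKO.

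The knockout comparison with siNT asks the same question in transfected cells. Here the called members were lower in 231:TKO cells. Of 85 members tested 0 were called higher and 23 (27.1%) lower by edgeR (1 and 22 by DESeq2). Of all 23310 genes 16.1% were called higher and 20.7% lower. Among genes with a mean of at least 1 CPM, 23 of 82 members and 3795 of 13445 genes were called lower. Called higher at that level were 0 members and 3007 genes. The share of members called lower was thus close to that of all genes at that level. The median was -0.19, against -0.03 for all genes. With offsets for gene length and all libraries kept, 12 members were called higher and 16 lower, the median was -0.04, and 19.2% of all genes were called higher and 20.9% lower. Complex I held 14 of the 23 calls, 13 of them accessory genes. Complex III held 3, complex V 3, complex IV 2 and complex II 1.

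NDUFB7, an accessory subunit on the intermembrane-space side of the membrane arm, was at 63.2, 72.3 and 61.4 CPM in 231:TKO+siNT and at 181, 116 and 123 in parental 231+siNT. The groups did not overlap, and the log2 difference was -1.06 (standard error 0.16, adjusted p = 0.000424). NDUFB10, a further membrane-arm subunit, was at 36.3, 37.6 and 37.6 against 82.6, 61.7 and 66.8 CPM (-0.88, standard error 0.11, adjusted p = 0.000105). NDUFC2 (-0.81) and NDUFA12 (-0.80) followed. NDUFV2, which works with NDUFV1 at the NADH site, was the called core gene at -0.49 (standard error 0.14, adjusted p = 0.0196).

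In complex III, UQCRH fell by 0.51, UQCR11 by 0.47 and UQCRC1, a core protein without a redox role, by 0.36. SDHC, which anchors complex II, was at 78.4, 79.7 and 79 CPM in 231:TKO+siNT against 109, 93.5 and 97.1 (-0.30, standard error 0.09, adjusted p = 0.0201). In complex IV the lower members were NDUFA4 (-0.64, standard error 0.15, adjusted p = 0.00618) and COX5B (-0.53, standard error 0.17, adjusted p = 0.0306). In complex V they were ATP5PD, a stalk subunit (-0.54), ATP5MC2 of the c ring (-0.53) and ATP5IF1 (-0.40).

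The balance of higher and lower calls also changed without parental 231+siNT replicate 1. In that fit 22 members were called higher and 26 lower, the median was 0.01, and all 23 lower calls were kept, beside 22.4% of all genes called higher and 25.8% lower. The members then called higher included COX6C (0.67, standard error 0.06, adjusted p = 8.51e-17), ATP5F1E (0.58), NDUFB3 (0.55), NDUFA1 (0.54), COX7B (0.51) and ATP5MC1 (0.49). By complex 8 members were then higher and 16 lower in complex I, and 6 higher and 3 lower each in complexes IV and V. Without 231:TKO+siNT replicate 1, 2 or 3 the lower calls numbered 12, 10 and 8, and none was higher (edgeR). The medians were -0.19, -0.20 and -0.16, and the share of all genes called is not given for these fits. With all libraries, other genes of 1 to 2 kb had a median of -0.34, against -0.36 for the 19 members of that length, and other genes of 2 to 7 kb had -0.09 against -0.14 for 41 members.

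With siMyc the comparison of populations uses 6 other libraries. Of 85 members 1 was called higher and 28 (32.9%) lower, where 18.8% of 23561 genes were called higher and 21.7% lower, and the median was -0.22. At a mean of at least 1 CPM, 1 of 82 members was higher and 28 lower, beside 3406 and 3948 of 13445 genes. With length offsets 12 were called higher and 20 lower, with a median of -0.06, beside 21.8% and 22% of all genes. Without the offsets the higher member was COX6C, a small subunit of complex IV (0.36, standard error 0.13, adjusted p = 0.0368). NDUFB7 (-1.04), NDUFB10 (-0.93) and NDUFA12 (-0.90) had the lowest values among the called members. In both siRNA settings 22 members were called lower, which is 95.7% of those called with siNT and 75.9% of those called with siMyc. The overlap of these calls over all genes is not given. Over 82 members the log2 fold changes of these comparisons correlated at r = 0.98 and rho = 0.97, a description across genes, which are not independent, and the libraries behind both share the release and the alignment-file number of their population.

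Without parental 231+siMyc replicate 3, 20 members were called higher and 31 lower with a median of -0.07, beside 23.1% and 26.6% of all genes, and all 28 lower calls were kept. Without 231:TKO+siMyc replicate 1, 2 or 3 the lower calls numbered 17, 17 and 13, with medians of -0.22, -0.21 and -0.20. The share of all genes called is not given for these fits. With the outlying library left out of each comparison, 43 members were called in both with siNT and with siMyc, 19 higher and 24 lower in each, and 0 in opposite directions. Here too the overlap over all genes is not given.

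**Figure D3:**
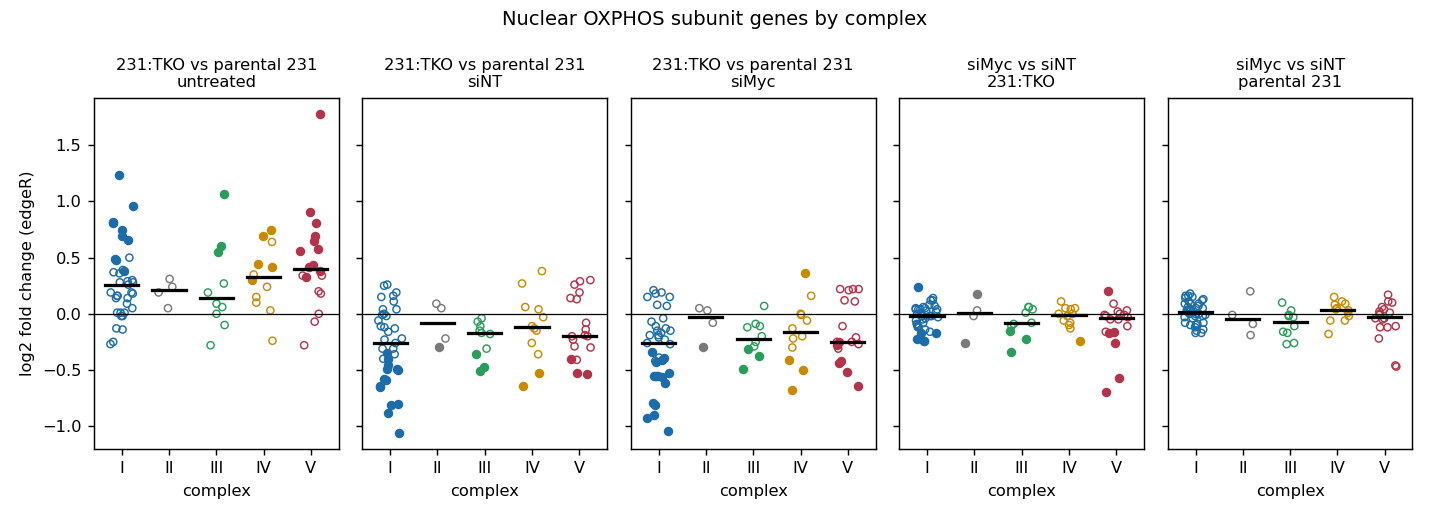
Log2 fold change (y axis, edgeR) of 81 members by complex (x axis) in the 5 comparisons; filled points passed an adjusted p of 0.05 and bars mark the median of the points drawn. Members under 1 CPM and COX7B2 are not drawn. Filled points lie above 0 in untreated cells, almost all lie below 0 in the siRNA comparisons of the populations, and none is filled for siMyc in parental 231.

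The difference between the knockout contrasts was tested directly, siNT minus untreated, in 1 fit of the 10 libraries. Of 85 members 1 was called higher and 29 (34.1%) lower, where 6.20% of 25112 genes were called higher and 7.91% lower. At a mean of at least 1 CPM, 1 of 82 members was higher and 29 lower, beside 1385 and 1867 of 13448 genes. The median was -0.46, against -0.04 for all genes. The lower members were 15 of complex I, all accessory, 1 of complex II, 3 of complex III, 2 of complex IV and 8 of complex V. ATP5ME had the lowest value at -1.99 (standard error 0.35, adjusted p = 0.00393), followed by NDUFB7 at -1.55, NDUFS5 at -1.39 and COX5B at -1.29. The higher member, COX7B2, had a fitted value of 3.62 that rests on counts at the floor in untreated 231:TKO cells (0 and 0.0343 CPM) and is no measure of size. Without parental 231+siNT replicate 1, 42 members were lower, including all 29, with a median of -0.33. Calls also rose over all genes, with 3238 of 24572 lower in that fit and 1987 of 25112 with all libraries. The median was -0.47 and -0.46 without untreated parental replicate 1 or 2, and -0.41 and -0.49 without untreated 231:TKO replicate 1 or 2. Without 231:TKO+siNT replicate 1, 2 or 3 the lower calls numbered 17, 16 and 16, with medians of -0.46, -0.45 and -0.46. The share of all genes called is not given for these fits. The siRNA and untreated libraries differ in read type, alignment-file number and, for the parental cells, release, and these cannot be told apart from the transfection.

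Member by member, 4 genes were called in both the untreated and the siNT comparison, all in opposite directions. NDUFS5, an accessory subunit of the membrane arm, was at 57.9 and 53.2 CPM in untreated parental 231 and at 83.4 and 104 in untreated 231:TKO, while with siNT it was at 296, 172 and 179 in parental 231 and at 139, 135 and 132 in 231:TKO. The other genes were NDUFB7 (0.48 untreated and -1.06 with siNT), COX5B (0.75 and -0.53) and ATP5IF1 (0.58 and -0.40). Of the 29 members higher in untreated 231:TKO cells, 11 lay above 0 with siNT and 18 below. Without parental 231+siNT replicate 1 these counts were 21 and 8, and 17 members were called in both comparisons, 13 of them higher in both. Those 13 were NDUFA1, NDUFB2, NDUFB3, NDUFC1, NDUFV1, UQCRB, COX7B, COX8A, ATP5F1A, ATP5F1E, ATP5MC3, ATP5MF and ATP5PF. How many of all genes were called in both comparisons is not given. ATP5ME was at 56.1, 59.7 and 56.7 CPM in 231:TKO+siNT and at 96.5, 49.9 and 57.6 in parental 231+siNT, so the 231:TKO values lay within the parental range (-0.20, standard error 0.21, adjusted p = 0.502).

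**Figure D4:**
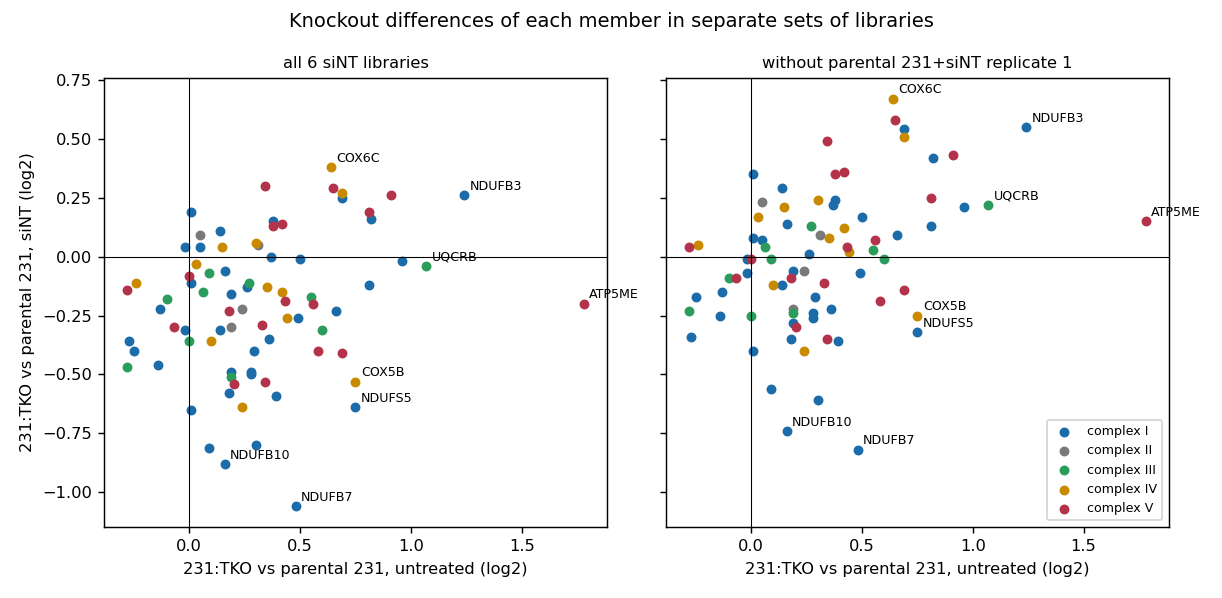
Log2 fold change of 231:TKO against parental 231 for 81 members, untreated (x axis) and with siNT (y axis), with all 6 siNT libraries (left) and without parental 231+siNT replicate 1 (right), coloured by complex. NDUFB7, NDUFS5 and COX5B lie right of 0 and below 0 in both panels, ATP5ME lies near 0 on the y axis, and the whole cloud is higher in the right panel.

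The siMyc comparison within 231:TKO cells asks which of these genes depend on Myc there. Of the members that fell, ATP5MK and ATP5MC1 of the ATP synthase had the lowest values. Of 85 members 3 (3.53%) were called higher and 15 (17.6%) lower, where 13.3% of 22450 genes were called higher and 13.9% lower, and the median was -0.02, against 0.01 for all genes. The share of members called lower was thus near that of all genes, and the share called higher was below it. At a mean of at least 1 CPM, 3 of 82 members were higher and 15 lower, beside 2778 and 2974 of 13419 genes. The lower members were 5 of complex I, 1 of complex II, 3 of complex III, 1 of complex IV and 5 of complex V. All 18 called members changed by less than 1 log2 unit.

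ATP5MK was at 111, 117 and 107 CPM with siNT and at 63.6, 70.9 and 75.7 with siMyc, a log2 difference of -0.70 (standard error 0.06, adjusted p = 2.04e-08). ATP5MC1 was at 83.4, 84 and 86.1 CPM with siNT and at 59.8, 60.5 and 54 with siMyc (-0.57, standard error 0.06, adjusted p = 1.85e-07). In both genes the groups were well separated. The E-box of ATP5MC1 lies at base 5 after the start in the sequence shown, whereas the promoter window of ATP5MK holds 0 E-boxes. The other c-ring genes moved less, ATP5MC3 by -0.16 (standard error 0.05, adjusted p = 0.0121) and ATP5MC2 by -0.05 (standard error 0.06, adjusted p = 0.639).

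ATP5F1B was at 679, 709 and 687 CPM with siNT and at 600, 593 and 586 with siMyc (-0.26, standard error 0.04, adjusted p = 0.000133). ATP5PB, a stalk subunit with an E-box in its promoter window, fell by 0.17 (standard error 0.05, adjusted p = 0.0077). CYC1, cytochrome c1, which hands electrons to cytochrome c, was at 211, 231 and 205 CPM with siNT and at 186, 180 and 156 with siMyc (-0.34, standard error 0.06, adjusted p = 0.000229). SDHB was at 95.5, 92.5 and 95.9 against 80.3, 80.8 and 81.6 CPM (-0.26, standard error 0.05, adjusted p = 0.000454).

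The remaining lower members were NDUFS3, a core subunit of complex I, NDUFAB1, which is also the mitochondrial acyl carrier protein, NDUFB9, NDUFA10, NDUFS5, UQCRC2, UQCRH and COX5A, between -0.24 and -0.15. The 3 higher members were NDUFA13 (0.24, standard error 0.08, adjusted p = 0.031), ATP5PD (0.20, standard error 0.05, adjusted p = 0.00531) and SDHC (0.18, standard error 0.05, adjusted p = 0.0118). SDHC thus moved opposite to SDHB, its partner in complex II. In 1 fit of all 12 siRNA libraries, whose spread includes the outlying parental pair, 2 members were called. Without 231:TKO+siMyc replicate 2, 1 member was called higher and 10 lower.

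In parental 231 cells 0 of 85 members passed the threshold after siMyc in either direction by edgeR or by DESeq2, where 0.240% of 23728 genes were called higher and 0.354% lower, and 1 member had an unadjusted p under 0.05. The median was 0.00. ATP5MC1 was at 86.5, 62 and 62.8 CPM with siNT and at 43.2, 45.3 and 62.7 with siMyc (-0.47, standard error 0.19, adjusted p = 0.284), and the replicates that stood apart in each group held the highest values. ATP5MK was at 202, 124 and 131 against 96.6, 90.9 and 141 CPM (-0.46, standard error 0.23, adjusted p = 0.407).

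With the outlying pair left out, a choice made after seeing the data, 9 members were called higher and 9 lower, beside 9.94% and 10.9% of 22445 genes, with 2 libraries a group. ATP5MC1 then fell by 0.50 (standard error 0.05, adjusted p = 2.12e-05), ATP5MK by 0.44 (standard error 0.05, adjusted p = 3.82e-05), CYC1 by 0.31 (standard error 0.05, adjusted p = 0.000343) and SDHB by 0.20 (standard error 0.05, adjusted p = 0.0135). SDHC was higher at 0.20 (standard error 0.05, adjusted p = 0.00652). The other members called were ATP5F1B, COX5A, NDUFV1, UQCRC2 and UQCRHL among the lower, and ATP5F1E, ATP5PD, COX6A1, COX6C, NDUFA1, NDUFA4, NDUFB3 and NDUFC2 among the higher. Between this fit and 231:TKO, which share no libraries, 9 members were called in both, 50% of the 18 called in each, of which 7 were lower and 2 higher in both. The overlap of calls over all genes is not given. Over 82 members the log2 fold changes of these fits correlated at r = 0.83 and rho = 0.80 across genes.

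**Figure D5:**
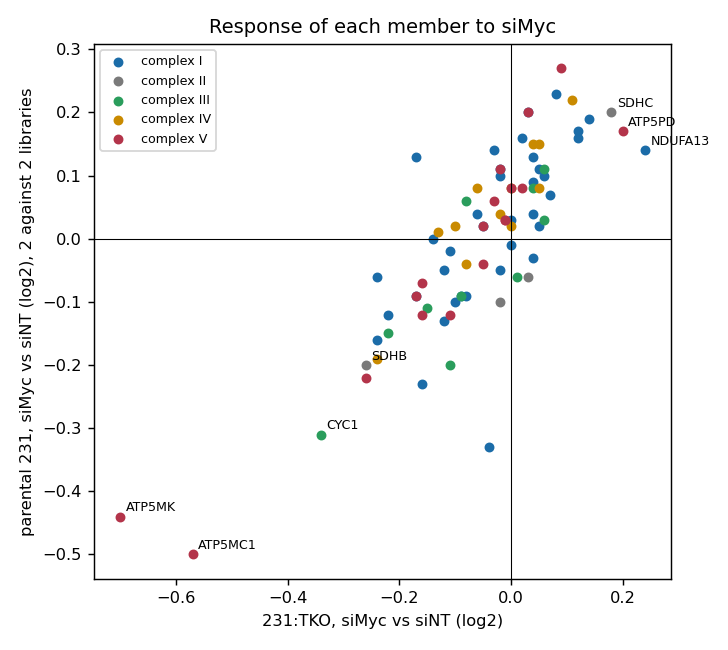
Log2 fold change after siMyc of 81 members in 231:TKO (x axis, 3 against 3 libraries) and in parental 231 (y axis, 2 against 2 libraries, without the pair that stood apart), coloured by complex. ATP5MK, ATP5MC1 and CYC1 are lower in both populations, and SDHC and ATP5PD are above 0 in both.

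The difference between these responses, 231:TKO minus parental 231, was an interaction in 1 fit of the 12 siRNA libraries. 0 members passed the threshold by edgeR or by DESeq2, 0 had an unadjusted p under 0.05, and 0% of 25812 genes were called higher and 0% lower. The difference was -0.07 (standard error 0.20) for ATP5MC1, -0.21 (standard error 0.27) for ATP5MK and -0.04 (standard error 0.16) for SDHB, and each standard error was larger than its difference. With the pair left out, NDUFS5 was called lower (-0.33, standard error 0.08, adjusted p = 0.0428), beside 0.0999% of 25019 genes called higher and 0.152% lower, the median was -0.09 and 77 of 85 members lay below 0.

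Genes that work with the subunits were followed as lists, in fits with all libraries kept. The 57 assembly factors, which build the complexes and are no part of them, were counted as 5 higher and 0 lower in untreated 231:TKO (median 0.07), beside 5.43% and 4.18% of all genes, and as 1 higher and 26 lower with siNT (median -0.32), beside 16.1% and 20.7% of all genes. After siMyc in 231:TKO cells 3 assembly factors were higher and 23 lower with a median of -0.14, beside 13.3% of all genes called higher and 13.9% lower. The difference between these genes and the subunits was not tested. NDUFAF4, an assembly factor of complex I, fell by 0.75 (standard error 0.07, adjusted p = 5.70e-08), BCS1L, which inserts the Rieske protein into complex III, by 0.59 (standard error 0.09, adjusted p = 2.93e-05), and COA7, of complex IV, by 0.51 (standard error 0.06, adjusted p = 1.68e-06). In parental 231 cells 0 assembly factors passed the threshold after siMyc with all libraries (edgeR), with a median of -0.08.

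Of 18 genes for electron carriers and entry points, 2 were higher and 5 lower after siMyc in 231:TKO cells, beside 13.3% and 13.9% of all genes. PDSS1, which makes the tail of ubiquinone, fell by 1.11 (standard error 0.09, adjusted p = 9.06e-09), DHODH, which feeds electrons from pyrimidine synthesis to ubiquinone, by 0.93 (standard error 0.10, adjusted p = 5.49e-07), and CYCS, cytochrome c, by 0.50 (standard error 0.08, adjusted p = 6.12e-05). In untreated 231:TKO cells ETFB, of the electron transfer flavoprotein, was lower at 6.34 ± 0.325 against 12.2 ± 1.06 CPM (SD, n = 2 each, -0.95, adjusted p = 0.0224), and COQ2, of ubiquinone synthesis, was higher at 0.47.

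Of 13 regulators of mitochondrial genes, 1 was higher and 7 lower after siMyc in 231:TKO cells, beside the same 13.3% and 13.9%. The lower ones included the coactivators PPARGC1B (-0.95, standard error 0.11, adjusted p = 1.62e-06) and PPRC1 (-0.59, standard error 0.06, adjusted p = 1.96e-07), TFAM, which packages and transcribes mitochondrial DNA (-0.39, standard error 0.06, adjusted p = 8.25e-05), and NRF1 itself (-0.22, standard error 0.07, adjusted p = 0.0162). In untreated 231:TKO cells POLRMT, the mitochondrial RNA polymerase, was lower at -0.48 and the median of the list was 0.14. With siNT, 3 regulators were higher and 3 lower in 231:TKO cells, beside 16.1% and 20.7% of all genes, with PPARGC1A highest at 1.98 (standard error 0.15, adjusted p = 2.52e-06).

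The 13 subunits encoded in mitochondrial DNA had a median of -0.07 in untreated 231:TKO cells, against 0.28 for the nuclear subunits, with MT-ATP8, MT-ND6 and MT-ND3 called higher. After siMyc in 231:TKO cells 3 were called higher and 0 lower, beside 13.3% and 13.9% of all genes, with a median of 0.08.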

How the data were processed

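Cells, libraries and groups were as given in the report. The authors captured mRNA with a stranded kit, aligned the reads to GRCh38 (hg38) with STAR and counted them per gene with featureCounts 1.6.3 on the reverse strand by largest overlap, and the deposited tables hold these raw counts, neither scaled nor filtered. The reads carry no molecular identifiers, so exact intervals and the floor of 3 counts cover counting error only. The members and the gene lists were chosen with earlier results of these data known.

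In each comparison, fitted on its own libraries, genes whose counts added up to more than 5 entered edgeR's quasi-likelihood test (edgeR 4.0.16, R 4.3.3), scaled by TMM, with no covariate. Differences between contrasts were interaction terms. Benjamini-Hochberg adjustment covered all genes of a comparison, with a threshold of 0.05. CPM values are counts scaled to a common library total with TMM factors. Promoters were RefSeq windows on GRCh38.p14, with the first start listed for each gene. Named genes were 32 landmark subunits and, per complex and direction, the 2 members with the largest change among those called with a mean of at least 1 CPM; all other members named with values were chosen after their values were seen. Alternatives were DESeq2 1.42.0, its size factors, other filters, a threshold of 0.01, offsets for gene length or for windows of 20 Mb, a replicate block, genes of equal length in the releases, 1 fit of 12 libraries and each library left out. Fits without the libraries that stood apart, or with a factor for them, were added after seeing the data. The steps were tested on simulated data. Other assays of the study were not analysed here.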

Additional observations from a re-analysis of the deposited data

Results flagged for a closer look

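The test of the difference between the knockout contrasts, siNT minus untreated, called 30 members. The values that follow are log2 differences from that interaction term of edgeR, each with an adjusted p of at most 0.05. In complex V they were -0.62 for ATP5F1A, -0.63 for ATP5F1C, -0.98 for ATP5IF1, -0.88 for ATP5MC2, -0.65 for ATP5MC3, -1.99 for ATP5ME and -1.10 for ATP5MK. In complex IV they were -1.29 for COX5B, -0.89 for NDUFA4 and 3.62 for COX7B2, whose fitted value rests on counts near 0 in the untreated libraries. In complex I NDUFB7 was at -1.55 and NDUFS5 at -1.39, in complex II SDHC was at -0.49, and in complex III UQCRB was at -1.11 and UQCRQ at -0.92. The groups behind these values also differ in read type and annotation release. With only genes of equal length in both releases, 30 members were called (1 higher, 29 lower) with a median of -0.47, against -0.46 with all genes. The part of read type, or of other differences between the releases, was not tested. No group had 4 to 10 samples, so single samples were not screened as outliers.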

How the results depend on the processing

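Results are counts of called members and member medians (log2). In untreated cells the replicate block lowered the 29 called members to 15; the numbers do not pair the samples, since same-numbered libraries did not deviate together, and with the block the other counts were 28 (siNT knockout comparison), 23 (siMyc knockout comparison), 22 (siMyc in 231:TKO), 0, 0 and 27, each within 1.5 times its value. At an adjusted p of 0.01 the counts were 5 untreated, 8 with siNT, 15 with siMyc, 11 for siMyc in 231:TKO and 8 for the difference between the knockout contrasts. With length offsets 12 members were called higher and 16 lower with siNT (median -0.04) and 12 and 20 with siMyc (median -0.06), in place of 0 and 23 and of 1 and 28. Length offsets moved the untreated median to 0.24, with 21 members called higher and 0 lower in place of 29 and 0. They moved the median of the difference to -0.27, with 4 called higher and 17 lower in place of 1 and 29. They called 1 member for siMyc in parental 231. Window offsets moved the untreated median to 0.22 with 30 members called and left 19 calls in the difference. Length offsets with the outlying library left out gave 50 calls (31 higher, 19 lower) and a median of 0.07 with siNT. They gave 49 calls (27 and 22) and 0.06 with siMyc, and 32 calls (7 and 25) and -0.17 for the difference. The balance of the siRNA comparisons and the sign of their medians thus changed with these choices. For siMyc in 231:TKO, 1 fit of 12 libraries left 2 calls and a median of 0.01. For siMyc in parental 231 the pair left out gave 18 calls and a factor for the pair 27, and the pair left out gave 1 call for the difference between the responses.

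Leaving out each library in turn gave 0 to 60 calls and medians of 0.23 to 0.31 untreated, 8 to 48 and -0.27 to 0.01 with siNT, 13 to 51 and -0.31 to -0.07 with siMyc, 11 to 26 and -0.04 to -0.01 for siMyc in 231:TKO, 0 calls and -0.16 to 0.20 for siMyc in parental 231, 0 calls and -0.25 to 0.08 for the difference between the responses, and 7 to 43 and -0.54 to -0.33 for the difference between the knockout contrasts. In the untreated comparison this leaves an arm with 1 sample, assumed to vary like the other. No named member reversed among those called. The cause of these shifts was not tested. Lower depth in the untreated libraries limits members under 10 CPM most.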
